A study of Mus musculus with 11 samples.

Results

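The core autophagy machinery is the set of 39 genes described here, all of them among the 18667 genes listed in the files. They were picked for their function, not for their values, but with earlier results of these libraries known, as the autophagy-related (ATG) and ULK proteins, the class III phosphatidylinositol 3-kinase (PI3K), the LC3 and GABARAP families and the main cargo receptors. RNA-Seq was performed on whole cochleae, the spiral hearing organ, from 2-month-old C57BL/6J mice. Libraries came from 5 *Atf6*+/+ (labelled WT) and 6 *Atf6*-/- (labelled ATF6 Knockout) individual cochleae, with no treatment given in the labels. The *Atf6*-/- allele has a stop codon in exon 4 and is carried by every cell, so that the loss is not restricted to the ear, and all mice carry the *Cdh23* ahl allele of the C57BL/6J strain, which causes age-related hearing loss. Whether any pair of cochleae came from the same animal is not stated, and p-values measure the spread between these libraries.

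Autophagy encloses cytoplasm, protein aggregates and pieces of organelles in a double membrane, the autophagosome, which then fuses with the lysosome. The ULK complex starts the process, ATG9 and ATG2 bring membrane lipid, and the class III PI3K makes the lipid PI3P that WIPI proteins read. A pair of ubiquitin-like conjugation reactions then attaches LC3 and GABARAP proteins to the membrane, where cargo receptors bind them. Autophagy is also a way of clearing stressed endoplasmic reticulum (ER), and the stress factors ATF4 and CHOP are known to switch on several of its genes. ATF6 itself is an ER membrane protein whose freed cytosolic part is a transcription factor for ER chaperones. Messenger RNA levels do not measure autophagic flux, much of which is set by phosphorylation and lipid attachment.

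The libraries fit their labels. *Atf6* (NCBI gene 226641) averaged 9.52 ± 1.11 FPKM (fragments counted per transcript length and library size, SD, n = 5) in the *Atf6*+/+ group. In the *Atf6*-/- group it averaged 4.27 ± 0.285 FPKM (SD, n = 6) with no overlap, and the log2 ratio was -1.13 (adjusted p = 5.17e-05 by limma). FPKM summed to between 462005 and 537926 per library. The fragments behind each value were not computed, since counts were not used here, although the methods state a nominal depth per sample. Markers of cochlear cells were present, with all 8 hair cell, 8 supporting cell, 8 stria vascularis and 6 fibrocyte genes among the genes tested. Markers of several cell types differed between the genotypes at the unadjusted limma p, and 0 of them had an adjusted p under 0.05. For comparison, 4.48% of the genes tested were higher and 5.37% lower at that rule, and 7324 of 16169 were above 0. Hair cell markers were above 0 on the log2 scale in 8 of 8, with *Slc26a5* (1.20) and *Ocm* (1.16) past the rule, and oligodendrocyte markers in 5 of 5, with *Mag* (0.33) and *Mobp* (0.46). Of the supporting cell markers 7 of 8 were above 0, with *Epyc* (0.86) past the rule, of the stria vascularis 7 of 8, with *Kcnj10* (0.37), and of the fibrocytes 5 of 6, with *Coch* (0.33). Below 0 were 8 of 8 neuron markers, with *Syt1* (-0.40) past the rule, 6 of 6 bone and 7 of 8 macrophage markers, with 0 past it, and 8 of 8 erythroid, 8 of 8 neutrophil and 7 of 8 B cell markers. The neuron marker *Prph* stood apart in *Atf6*+/+ replicates 3 and 4, at 13.29 and 41.50 FPKM against 1.49 to 2.40 FPKM elsewhere, and the summed skeletal muscle markers in *Atf6*-/- replicate 3, at 35.37 FPKM. The stria vascularis markers *Kcne1* and *Tyr* were lowest in *Atf6*+/+ replicate 4, each at 0.10 FPKM, against 3.39 to 22.76 and 0.35 to 4.32 FPKM elsewhere. That library was also lowest for *Kcnq1*, *Esrrb*, *Slc12a2*, *Atp1b2* and *Kcnj10* (32.03 FPKM). *Kcne1* was above 0 on the log2 scale although its mean was 14.4 FPKM in *Atf6*+/+ and 13.0 FPKM in *Atf6*-/-. With a bone marrow score of each library, the mean log2 level of the neutrophil, B cell and erythroid markers, as a covariate, 0 of the 8 markers from outside the marrow that were past the rule stayed past it. Their log2 fold changes were then 0.61 for *Slc26a5*, 0.47 for *Ocm*, 0.41 for *Epyc*, 0.40 for *Mobp*, 0.24 for *Kcnj10*, 0.23 for *Mag*, 0.16 for *Coch* and -0.19 for *Syt1*. The summed level of 8 erythroid markers was 4838 to 46408 FPKM among *Atf6*+/+ and 2875 to 9389 FPKM among *Atf6*-/- cochleae, with 7 of the 8 lower at an unadjusted limma p of at most 0.05. For 8 neutrophil markers the sums ranged from 249 to 3077 FPKM and from 90.04 to 1193 FPKM, with 4 of 8 lower, and for 8 B cell markers from 31.7 to 56.0 FPKM and from 30.3 to 40.1 FPKM, with 2 of 8 lower. In these whole-organ samples, fewer cells of a type and less RNA per cell cannot be told apart.

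Promoter sequences were read first, because ATF6, XBP1 and ATF4 act through short DNA elements and the lysosomal regulator TFEB through another. Of the 39 genes, 32 had at least 1 promoter in the RefSeq table (mouse assembly GRCm38.p6, 250 bases before to 50 bases after each start), 36 promoters in all. Each was searched on both strands for 5 motifs. The ER stress response element, CCAAT and CCACG with 9 free bases between, was found in 0 of the 36, against 0.119% of all 32851 promoters in the table. ERSE-II, ATTGG and CCACG with 1 free base between, was found in 0 of 36 against 0.0365%, and the XBP1 and ATF6 element TGACGTGG, which holds the reverse complement of CCACG, in 0 of 36 against 0.676%. The ATF4 element TGATGNAA was found in 0 of 36 against 3.97%. The CLEAR element of TFEB, TCACGTGA, was found in 1 of 36 (2.78%), that of *Atg3*, against 0.974%. These letters being absent from a window says nothing of sites elsewhere. The *Atg3* promoter is shown with the motif in capitals, its first base at -72 from the transcription start (GRCm38.p6, chr16:45158579-45158878, plus strand). Those of *Map1lc3b* (chr8:121590188-121590487, plus strand) and *Sqstm1* (chr11:50210771-50211070, minus strand), 2 abundant members that ATF4 is known to induce in other cells, are shown because none of the motifs was found in them.
Atg3: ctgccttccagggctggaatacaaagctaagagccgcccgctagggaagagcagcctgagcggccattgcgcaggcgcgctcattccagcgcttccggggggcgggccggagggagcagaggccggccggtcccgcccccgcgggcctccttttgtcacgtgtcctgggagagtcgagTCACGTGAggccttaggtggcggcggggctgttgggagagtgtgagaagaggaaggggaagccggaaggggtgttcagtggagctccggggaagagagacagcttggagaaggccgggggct
Map1lc3b: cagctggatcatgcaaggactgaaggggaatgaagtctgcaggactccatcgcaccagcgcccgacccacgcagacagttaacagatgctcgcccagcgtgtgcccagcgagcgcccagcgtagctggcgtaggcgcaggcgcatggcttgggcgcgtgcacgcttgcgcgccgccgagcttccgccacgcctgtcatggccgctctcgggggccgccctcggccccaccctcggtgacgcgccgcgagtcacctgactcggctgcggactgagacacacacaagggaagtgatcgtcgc
Sqstm1: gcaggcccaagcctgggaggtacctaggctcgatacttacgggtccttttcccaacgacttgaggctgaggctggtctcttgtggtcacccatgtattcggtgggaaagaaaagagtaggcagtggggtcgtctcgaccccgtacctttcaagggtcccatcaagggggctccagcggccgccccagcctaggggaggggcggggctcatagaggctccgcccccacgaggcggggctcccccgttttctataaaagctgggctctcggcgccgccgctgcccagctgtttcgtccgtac

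No member of the machinery was called different between *Atf6*-/- and *Atf6*+/+ cochleae. After limma with Benjamini-Hochberg adjustment over all 16169 genes tested, 0 of the 39 genes had an adjusted p under 0.05, against 0.068% of all genes, and the lowest adjusted p among the 39 was 0.505. At an unadjusted limma p of at most 0.05 and a log2 ratio beyond 0.05 in either direction, 0 of 39 were called, against 9.85% of all genes tested (4.48% higher and 5.37% lower). *Wipi2*, *Tax1bp1*, *Atg4a* and *Ambra1* lay just past that cut, at limma p from 0.0519 to 0.0547, so the 0 depends on where the cut is set. In 0 of 39 did the libraries of the genotypes fail to overlap, against 1.25% of all genes (0.643% higher and 0.606% lower). By the exact two-sided permutation test over all 462 assignments of genotype, which is not adjusted here, 5 of 39 (12.8%) had p of at most 0.05, against 9.22% of all genes (4.32% higher and 4.9% lower). These were *Wipi2*, *Ambra1* and *Pik3r4*, with higher means in *Atf6*-/-, and *Tax1bp1* and *Atg4a*, with lower means. The exact test has a smallest possible p of 0.00216 with 5 and 6 libraries.

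In the main fit the differences were small and closely bounded. Log2 fold changes ranged from -0.18 for *Atg4a* to 0.10 for *Ulk1*, with 22 members above 0 and 17 below, and a median of 0.020 against -0.013 for all genes tested. Rescaled to TPM, which moves the median of all genes to 0.043, 30 members were above 0 and 9 below. With the marrow score as a covariate, 17 were above 0 and 22 below. The median standard error was 0.057 on the log2 scale, against 0.092 for all genes. All 39 of the 95% intervals of the log2 fold change included 0, and 37 lay within a 1.25-fold change in either direction (94.9%, against 54.9% of all genes tested, which include many low or variable genes). The exceptions were *Atg9b*, whose interval ran from -25.4% to 14.5%, and *Atg4a*, from -22.1% to 0.252%. In this fit a larger rise than 22.3%, the upper end for *Atg16l2*, was outside the interval of every member. With the marrow covariate the highest log2 fold change of a member was 0.17, and after rescaling to TPM it was 0.16. The plot of differences shows the estimates and intervals of the main fit by role.

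**Figure D1:**
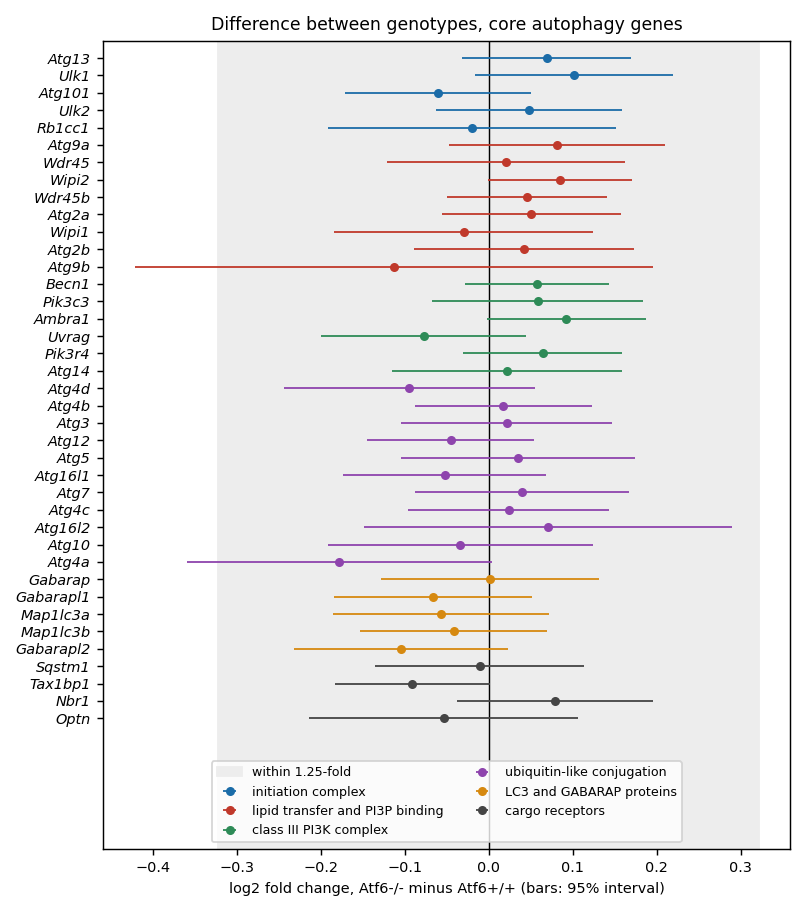
Log2 fold change in FPKM between *Atf6*-/- (n = 6) and *Atf6*+/+ (n = 5) cochleae for the 39 core autophagy genes, coloured by role. Points are limma estimates, bars are 95% intervals and the grey band marks changes within 1.25-fold. Every interval crosses 0 and 37 of 39 lie inside the band.

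Levels of the 39 members spanned a wide range, and the genotypes overlapped at each. Averaged over the 11 libraries, 6 members were at 100 FPKM or more, 25 between 10 and 100 FPKM, 7 between 1 and 10 FPKM, and *Atg9b* alone was under 1 FPKM. The median member stood at the 71.1st percentile of level among all genes tested. The 5 LC3 and GABARAP transcripts together made up between 49.9% and 51.9% of the summed FPKM of the 39 in *Atf6*+/+ and between 48.9% and 52.1% in *Atf6*-/- cochleae. *Sqstm1* alone made up between 11.3% and 13.4% among *Atf6*+/+ and between 12.3% and 12.4% among *Atf6*-/- cochleae. Values varied little between libraries of a genotype, with a median coefficient of variation of 5.90% in *Atf6*+/+ and 5.24% in *Atf6*-/-, and a highest of 14.8% and 12.3%.

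**Figure D2:**
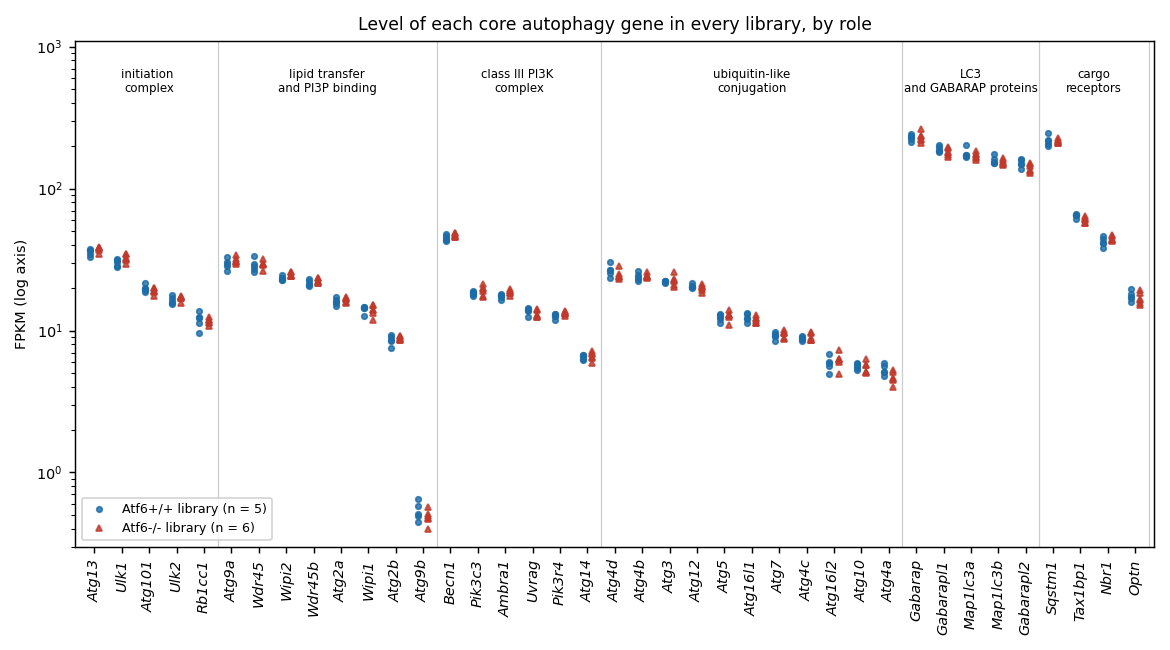
FPKM on a log axis of the 39 core autophagy genes in each *Atf6*+/+ library (circles, n = 5) and each *Atf6*-/- library (triangles, n = 6), grouped by role and ordered by mean level. The LC3 and GABARAP genes and *Sqstm1* lie above 100 FPKM, *Atg9b* lies under 1 FPKM, and the genotypes overlap for every gene.

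The initiation complex joins the kinase ULK1 or its relative ULK2 to the scaffolds ATG13, FIP200 (gene *Rb1cc1*) and ATG101, and receives the nutrient signals from mTORC1 and AMPK. *Atg13* was the most abundant of its genes. Its values in the 5 *Atf6*+/+ libraries were 34.33, 36.15, 37.16, 37.80 and 33.12 FPKM, and those in *Atf6*-/- ranged from 34.70 through a median of 38.08 to 38.71 FPKM. The groups overlapped, with 5 of 6 *Atf6*-/- libraries above the *Atf6*+/+ mean and a log2 ratio of 0.069 (standard error 0.046, limma, adjusted p = 0.612). *Ulk1*, the member with the highest log2 fold change and named after its value was seen, had 28.49, 30.47, 31.96, 31.63 and 28.00 FPKM for *Atf6*+/+ and from 29.32 through a median of 32.07 to 34.51 FPKM in *Atf6*-/- cochleae. *Atf6*-/- replicates 2, 5 and 6 lay above every *Atf6*+/+ library, and replicates 1, 3 and 4 lay among them. The log2 fold change of *Ulk1* was 0.10 (95% interval -0.017 to 0.22, limma, adjusted p = 0.546), and 0.17 (past the unadjusted rule, limma, adjusted p = 0.893) with the marrow score as a covariate. *Ulk2*, *Atg101* and *Rb1cc1* had means of 16.6, 19.4 and 11.7 FPKM over all libraries, and log2 fold changes of 0.048, -0.060 and -0.020. *Ulk1* exceeded *Ulk2* in every library, by 1.67 to 2.07 times in *Atf6*+/+ and by 1.84 to 2.00 times in *Atf6*-/-. For *Rb1cc1*, *Atf6*+/+ replicate 4 held the lowest value of all 11 libraries, 9.67 FPKM.

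ATG9 is a lipid scramblase carried on small vesicles, and ATG2 is a channel that moves lipid from the ER into the growing membrane. *Atg9a* had 29.24, 28.46, 30.34, 33.07 and 26.31 FPKM for *Atf6*+/+ and from 29.35 through a median of 30.70 to 33.97 FPKM in *Atf6*-/- cochleae. *Atf6*+/+ replicates 3 and 4 lay inside the *Atf6*-/- range, and the log2 ratio was 0.081 (standard error 0.059, limma, adjusted p = 0.641). With the marrow score as a covariate it was 0.17 (past the unadjusted rule, limma, adjusted p = 0.902). Its paralog *Atg9b* was close to the floor of measurement, with 0.51, 0.49, 0.45, 0.65 and 0.58 FPKM for *Atf6*+/+ and from 0.40 through a median of 0.485 to 0.57 FPKM in *Atf6*-/- cochleae. *Atg9a* exceeded it by 45.4 to 67.4 times in *Atf6*+/+ and by 53.0 to 77.5 times in *Atf6*-/-. At these levels the added 0.1 FPKM shrinks the log2 fold change of *Atg9b*, -0.11 (standard error 0.14, limma, adjusted p = 0.803). *Atg2a* and *Atg2b* had means of 16.3 and 8.73 FPKM and log2 fold changes of 0.051 and 0.042.

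WIPI1, WIPI2 and their relatives WDR45 and WDR45B bind PI3P, and WIPI2 brings the conjugation factor ATG16L1 to the membrane. *Wipi2* had the smallest limma p of the 39 members. Its values were 22.74, 24.69, 22.84, 23.57 and 23.30 FPKM for *Atf6*+/+ and from 24.19 through a median of 24.47 to 25.91 FPKM in *Atf6*-/- cochleae. All 6 *Atf6*-/- libraries lay above 4 of the 5 *Atf6*+/+ libraries, and *Atf6*+/+ replicate 2 lay among them. Its log2 fold change was 0.085 (95% interval -0.00083 to 0.17, limma p = 0.0519, adjusted p = 0.505, exact two-sided permutation p = 0.0216). Without *Atf6*+/+ replicate 2 the log2 fold change was 0.10, past the unadjusted rule (limma, adjusted p = 0.431). As this was the library that overlapped, nothing is read from that call. After the genotype means were removed, the members whose log2 values over the 11 libraries were most like those of *Wipi2* were *Uvrag*, *Ambra1* and *Wipi1*, with Pearson r of 0.67, 0.60 and 0.58, given as a description. *Wipi1* itself had a mean of 14.0 FPKM and a log2 ratio of -0.030. *Wdr45*, which is mutated in a neurodegenerative disorder with brain iron accumulation, and *Wdr45b* had means of 29.1 and 22.1 FPKM and log2 fold changes of 0.020 and 0.045.

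The class III PI3K complex holds the lipid kinase VPS34 (gene *Pik3c3*), its partner VPS15 (*Pik3r4*) and Beclin 1 (*Becn1*), with ATG14 in its autophagic form and UVRAG in its endosomal form. *Becn1* had 44.98, 42.95, 46.41, 43.76 and 47.47 FPKM for *Atf6*+/+ and from 45.60 through a median of 46.52 to 48.84 FPKM in *Atf6*-/- cochleae. All 6 *Atf6*-/- libraries lay above the *Atf6*+/+ mean, but *Atf6*+/+ replicates 3 and 5 lay inside their range. The log2 ratio was 0.057 (standard error 0.039, limma, adjusted p = 0.626). *Ambra1*, whose product links Beclin 1 to the ULK complex, had 17.35, 18.02, 17.50, 17.79 and 16.42 FPKM and from 17.41 through a median of 18.62 to 19.49 FPKM, a log2 ratio of 0.092 (95% interval -0.0022 to 0.19, limma, adjusted p = 0.505, exact two-sided permutation p = 0.0238). One *Atf6*-/- library, replicate 3, lay inside the *Atf6*+/+ range, and leaving it out gave a log2 ratio of 0.11, past the unadjusted rule (limma, adjusted p = 0.437). Leaving out the library that overlaps enlarges the difference by construction, so nothing is read from this.

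*Pik3r4* had 12.58, 13.16, 12.99, 11.90 and 12.68 FPKM for *Atf6*+/+ and from 12.62 through a median of 13.27 to 13.62 FPKM for *Atf6*-/- cochleae. Its log2 fold change was 0.064 (limma, adjusted p = 0.617, exact two-sided permutation p = 0.0433), with 5 of 6 *Atf6*-/- libraries above the *Atf6*+/+ mean and *Atf6*+/+ replicates 2, 3 and 5 inside the *Atf6*-/- range. The kinase gene *Pik3c3* had a mean of 18.8 FPKM and a log2 ratio of 0.058. *Atg14* and *Uvrag*, which direct the complex to different membranes, had means of 6.57 and 13.4 FPKM and log2 fold changes of 0.022 and -0.078. The ratio of *Atg14* to *Uvrag* ranged from 0.442 to 0.540 for *Atf6*+/+ and from 0.413 to 0.548 in *Atf6*-/- cochleae, with overlap. Averaged over the 6 genes of the complex, log2 values, set against the *Atf6*+/+ mean, lay from -0.028 to 0.027 for *Atf6*+/+ and from 0.015 to 0.055 in *Atf6*-/- cochleae. Of the *Atf6*-/- libraries, 4 lay above the highest *Atf6*+/+ library. The *Atf6*-/- mean of this average was 0.036, and averages by role were not tested.

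The conjugation genes encode the E1-like enzyme ATG7, the E2-like ATG3 and ATG10, the ubiquitin-like ATG12 with its target ATG5 and their partner ATG16L1, and the ATG4 proteases that trim and recycle LC3 and GABARAP proteins. *Atg4d* was the most abundant, at 25.59, 23.50, 26.57, 30.40 and 26.62 FPKM for *Atf6*+/+ and from 23.18 through a median of 24.16 to 28.49 FPKM in *Atf6*-/- cochleae, a log2 ratio of -0.095 (standard error 0.069, limma, adjusted p = 0.641). The groups overlapped, and *Atf6*-/- replicate 2 lay above the other *Atf6*-/- libraries. *Atg4a* had the lowest log2 fold change of the 39 members. It had 5.08, 4.79, 5.87, 5.62 and 5.11 FPKM for *Atf6*+/+ and from 4.02 through a median of 4.60 to 5.28 FPKM in *Atf6*-/- cochleae. No *Atf6*-/- library reached the *Atf6*+/+ mean, while *Atf6*-/- replicates 4 and 6 lay inside the *Atf6*+/+ range. The log2 fold change was -0.18 (95% interval -0.36 to 0.0036, limma, adjusted p = 0.505, exact two-sided permutation p = 0.0455). With the marrow score as a covariate it was -0.047. The part of marrow in these differences was not tested.

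The other conjugation genes differed between genotypes by less than 1 standard error. *Atg4b* and *Atg4c* had means of 24.1 and 8.89 FPKM and log2 fold changes of 0.017 and 0.024. *Atg3*, *Atg12*, *Atg5*, *Atg16l1* and *Atg7* had means of 22.3, 20.2, 12.5, 12.1 and 9.33 FPKM, and *Atg16l2* and *Atg10* had 6.02 and 5.55 FPKM. Log2 fold changes of these 7 genes lay between -0.052 for *Atg16l1* and 0.071 for *Atg16l2*. *Atg3* was the steadiest member in *Atf6*+/+ cochleae, with a coefficient of variation of 1.79%, against 8.68% in *Atf6*-/-, where values ran from 20.28 to 25.77 FPKM.

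LC3 and GABARAP proteins are the small ubiquitin-like tags that coat the autophagosome. *Gabarap* was the most abundant of all 39 members, at 235.79, 214.50, 231.54, 225.08 and 243.82 FPKM for *Atf6*+/+ and from 210.34 through a median of 229.2 to 262.10 FPKM in *Atf6*-/- cochleae. The means, 230 ± 11.1 FPKM (SD, n = 5) and 231 ± 17.99 FPKM (SD, n = 6), gave a log2 ratio of 0.0011 (95% interval -0.13 to 0.13, limma, adjusted p = 0.998). *Gabarapl1*, *Map1lc3a*, *Map1lc3b* and *Gabarapl2* followed, at means of 185, 173, 156 and 146 FPKM. The lowest *Gabarap* value of any library exceeded the highest of *Gabarapl1*, whereas each of the next neighbours in this order overlapped across libraries. Within a library the order of close relatives was steady. *Map1lc3a* exceeded *Map1lc3b* by 1.07 to 1.16 times in *Atf6*+/+ and by 1.08 to 1.12 times in *Atf6*-/-, and *Gabarapl1* exceeded *Gabarapl2* by 1.14 to 1.35 and 1.25 to 1.33 times. The levels are uncertain to the extent that reads were shared with near-identical processed copies of these genes. Their log2 fold changes were -0.067, -0.057, -0.042 and -0.10, with limma adjusted p between 0.559 and 0.796.

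Averaged over the 5 genes of this family, log2 values, set against the *Atf6*+/+ mean, lay from -0.076 to 0.069 for *Atf6*+/+ and from -0.15 to 0.063 in *Atf6*-/- cochleae. *Atf6*-/- replicates 5 and 6 were the lowest of all libraries, *Atf6*+/+ replicate 4 and *Atf6*-/- replicate 3 the highest, and the genotypes overlapped. *Atf6*+/+ replicate 4 held the highest value of all libraries for 10 of the 39 members and *Atf6*-/- replicate 5 the lowest for 9. The former library was also the lowest for the stria vascularis markers *Kcne1* and *Tyr*.

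**Figure D3:**
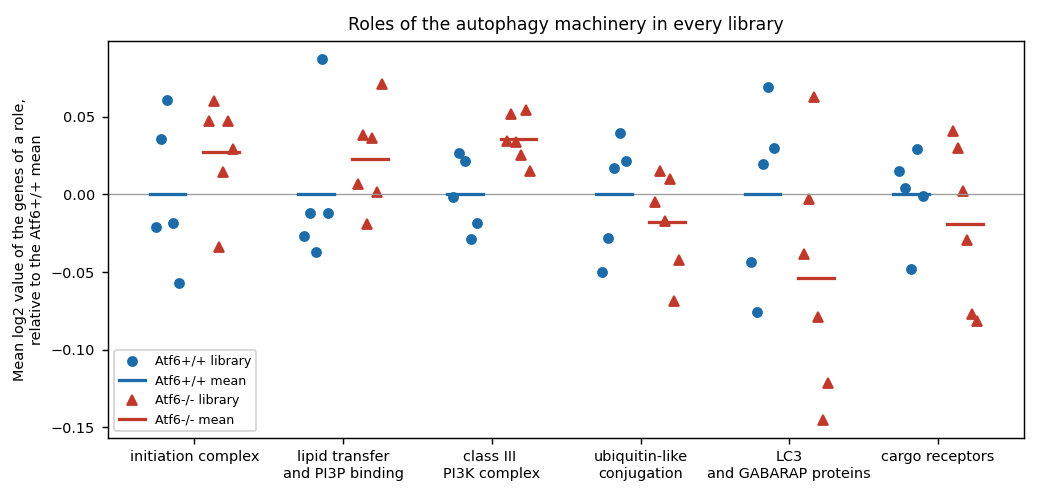
Mean log2 value of the genes of each role in each library, relative to the mean of the *Atf6*+/+ libraries (circles, *Atf6*+/+, n = 5; triangles, *Atf6*-/-, n = 6; bars, means). In the class III PI3K complex most *Atf6*-/- libraries lie at the top of the *Atf6*+/+ range or above it, from 0.015 to 0.055, and in the LC3 and GABARAP family they spread from -0.15 to 0.063.

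Cargo receptors bind ubiquitin or cargo on one side and LC3 or GABARAP on the other. p62, the product of *Sqstm1*, is itself degraded by autophagy and its protein builds up when flux is blocked, which its mRNA cannot show. *Sqstm1* had 204.62, 216.83, 199.28, 248.19 and 221.45 FPKM for *Atf6*+/+ and from 208.15 through a median of 215.3 to 227.26 FPKM in *Atf6*-/- cochleae, so that the *Atf6*-/- values all lay inside the *Atf6*+/+ range. Its log2 fold change was -0.011 (95% interval -0.13 to 0.11, limma, adjusted p = 0.964). *Tax1bp1*, a receptor for ubiquitinated cargo that also restrains inflammatory signalling, had 65.80, 65.29, 64.93, 61.04 and 65.05 FPKM for *Atf6*+/+ and from 56.79 through a median of 60.95 to 64.30 FPKM in *Atf6*-/- cochleae. The 6 *Atf6*-/- values lay below 4 of the 5 *Atf6*+/+ values, and *Atf6*+/+ replicate 4 lay among them. The log2 fold change was -0.091 (95% interval -0.18 to 0.0013, limma, adjusted p = 0.505, exact two-sided permutation p = 0.0325). Without *Atf6*+/+ replicate 4, the library that overlapped, it was -0.11, past the unadjusted rule (limma, adjusted p = 0.556), and nothing is read from that call. *Nbr1*, a relative of p62, had a mean of 43.5 FPKM and a log2 ratio of 0.079, and *Optn*, a receptor for damaged mitochondria, had 17.2 FPKM and -0.054.

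By role, the directions were mixed. Of the 30 genes of the first 4 roles, 20 were above 0, and of the 9 LC3, GABARAP and receptor genes 7 were below 0, with no member called. These counts depended on the setting, with 25 of 30 above 0 and 4 of 9 below after rescaling to TPM, and 17 of 30 and 9 of 9 with the marrow covariate. Transcript length moved with these signs. All 39 members had a protein-coding transcript in GENCODE M21, and the longest one had a median length of 4196 bases for the 22 members above 0 and of 2673 bases for the 17 below. Across the 39 genes, which share the same libraries, the Pearson r of log2 fold change with log2 length was 0.40, and across the 15553 tested genes with such a transcript it was 0.19. The part of length in the members' differences was not tested. A textbook subset of 12 members that ATF4 or CHOP are known to induce, *Atg3*, *Atg5*, *Atg7*, *Atg10*, *Atg12*, *Atg16l1*, *Becn1*, *Gabarap*, *Gabarapl2*, *Map1lc3b*, *Nbr1* and *Sqstm1*, had 6 genes above 0 and 6 below, from -0.10 to 0.079, with a median log2 fold change of -0.0048.

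**Figure D4:**
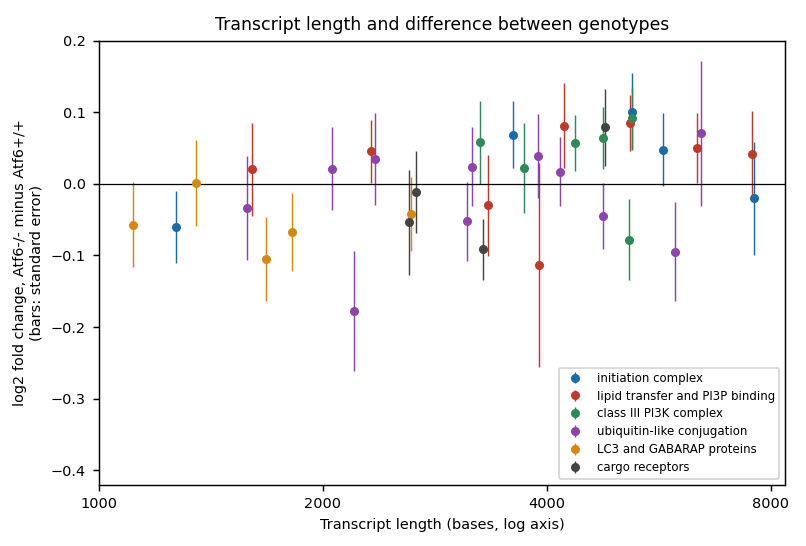
Log2 fold change of the 39 core autophagy genes (*Atf6*-/- minus *Atf6*+/+, limma estimate, bars: standard error) against the length of the longest protein-coding transcript on a log axis, coloured by role. The LC3 and GABARAP genes lie among the shorter transcripts, and the Pearson r over the 39 genes is 0.40.

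The steps before and after the core machinery were measured in 94 further genes, of which 0 had a limma adjusted p under 0.05. At the unadjusted rule 4 were higher and 7 lower in *Atf6*-/- cochleae, beside 4.48% and 5.37% of all genes tested, and the median log2 ratio of the 94 was 0.0054. These lists were written with earlier results of the same libraries known, so the counts are not independent evidence. Among 14 genes of fusion with the lysosome 1 was higher, *Plekhm1*, a RAB7 effector (log2 fold change 0.11). Among 28 lysosomal genes 1 was higher and 1 lower. *Tpp1*, a lysosomal peptidase, had 50.99, 45.73, 50.58, 45.81 and 48.15 FPKM for *Atf6*+/+ and from 51.04 through a median of 55.02 to 57.98 FPKM in *Atf6*-/- cochleae. The groups did not overlap, though by a narrow margin, and the log2 fold change was 0.19 (limma, adjusted p = 0.302). *Atp6v1h*, a subunit of the proton pump that acidifies lysosomes, had a log2 ratio of -0.15 (limma, adjusted p = 0.362).

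Among 22 regulators of mTORC1, AMPK and TFEB, *Foxo3*, a transcription factor of autophagy genes, was higher (log2 fold change 0.27), and *Rheb*, *Rragb* and *Rragc*, GTPases that activate mTORC1 at the lysosome, were lower (-0.14, -0.16 and -0.11), all with limma adjusted p between 0.407 and 0.505. *Tfeb* itself averaged 22.1 ± 3.02 FPKM (SD, n = 5) and 22.7 ± 1.32 FPKM (SD, n = 6). Of 8 ER-phagy receptors, which deliver pieces of the ER to autophagosomes, 0 were at the unadjusted rule. Their log2 fold changes ran from -0.13 for *Retreg1*, also known as FAM134B, to 0.041 for *Ccpg1*, an ER-phagy receptor known to be induced by ER stress. Of 8 mitophagy genes 2 were lower, among them *Bnip3*, a receptor on the outer mitochondrial membrane (-0.088). Of 14 accessory factors *Tmem41b*, an ER lipid scramblase, was lower (-0.15). *Trp53inp2*, whose product helps recruit LC3, had 64.63, 59.24, 66.07, 57.15 and 59.13 FPKM for *Atf6*+/+ and from 66.72 through a median of 68.75 to 75.77 FPKM in *Atf6*-/- cochleae, without overlap. Its log2 fold change was 0.18 (limma, adjusted p = 0.362). Rescaled to TPM, 7 of the 94 were higher and 0 lower, beside 8.59% and 2.72% of all genes tested. With the marrow covariate, 3 were higher and 3 lower, beside 2.02% and 3.42%. Of the 11 called without it 5 were not called with it, among them *Foxo3* (0.18), *Rragb* (-0.15), *Bnip3* (-0.081) and *Tmem41b* (-0.14). The 6 that stayed were *Tpp1* (0.22), *Trp53inp2* (0.25), *Plekhm1* (0.16), *Atp6v1h* (-0.16), *Rheb* (-0.21) and *Rragc* (-0.13).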

How the data were processed

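RNA was measured in 11 whole cochleae. The authors aligned stranded DNBSEQ mRNA reads to GRCm39 with HISAT2 and computed FPKM per library with RSEM, and these deposited FPKM values, with 2 decimals, were used here. Counts were not used, so counting error was not computed. Values were joined by NCBI gene identifier. Genes averaging 0.1 FPKM or more were tested on log2(FPKM + 0.1) by genotype alone with limma 3.58.1 (R 4.3.3, mean-variance trend, two-sided, adjusted by Benjamini-Hochberg over all 16169 genes), checked on simulated data. A fold change on this scale understates changes of low genes. The members and gene lists were chosen with earlier results of these data known. Members were described library by library when called, without overlap, most abundant in a role or under 1 FPKM. *Wipi2*, *Ambra1*, *Pik3r4*, *Tax1bp1*, *Atg4a* and *Ulk1* were added after their values were seen, for a permutation p of at most 0.05 or for the largest change. Replicate numbers were not used as pairs, since same-numbered libraries did not deviate together. Alternatives were other pseudocounts, filters and scalings, robust variance, a replicate block, a marrow score and leaving out each library. RefSeq promoters and GENCODE M21 transcripts are of GRCm38. Protein sequences were not used here. The values of 1 mitophagy gene are not reported here. Python 3.11.15 did the remaining steps.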

Additional observations from a re-analysis of the deposited data

Results flagged for a closer look

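Of the 80 sets of values examined (39 members and *Atf6*, in each genotype), 6 held a library that stood apart from the others of its group. The measure was Dixon's ratio, the gap from the highest or lowest library to its neighbour over the range of the group, at its 95% critical value, which by its construction marks about 1 in 20 sets by chance. In *Atf6*+/+ cochleae, replicate 4 was high for *Map1lc3a* at 203.38 FPKM, against 166.41 to 172.31 FPKM in the others, and low for *Tax1bp1* at 61.04 FPKM, against 64.93 to 65.80 FPKM. Replicate 3 was low for *Wipi1* at 12.59 FPKM, against 14.33 to 14.73 FPKM. In *Atf6*-/- cochleae, replicate 3 was low for *Ulk2* at 15.69 FPKM, against 16.86 to 17.55 FPKM, replicate 6 was high for *Atg4b* at 25.87 FPKM, against 23.47 to 24.28 FPKM, and replicate 2 was high for *Atg4d* at 28.49 FPKM, against 23.18 to 24.96 FPKM.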

How the results depend on the processing

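The count of members with an adjusted p under 0.05 was 0 in each of the 20 alternative settings, where the lowest adjusted p of any member was 0.378, after rescaling to TPM. Members higher at the unadjusted p numbered 0 in the main setting, 1 with median-of-ratios scaling or a pseudocount of 1 FPKM, 2 with the bone marrow score (*Ulk1* and *Atg9a*) or no filter, 3 after rescaling to TPM (*Wipi2*, *Becn1* and *Ambra1*), and from 0 to 3 without 1 library. Members lower numbered 1 with a mean of at least 1 FPKM, no filter, or the replicate block, and from 0 to 2 without 1 library. Without *Atf6*+/+ replicate 2, 3 were higher and 2 lower, without *Atf6*+/+ replicate 4 or *Atf6*-/- replicate 3, 2 and 1, and without *Atf6*-/- replicate 2, 4 or 6, 0 and 1. Of all genes at the same rule, 4.48% were higher and 5.37% lower in the main setting, 8.59% and 2.72% after rescaling to TPM, 2.02% and 3.42% with the marrow score, 5.41% and 4.72% with median-of-ratios scaling, 4.43% and 5.38% with the pseudocount of 1 FPKM, 4.03% and 5.17% with no filter, 4.99% and 5.16% with a mean of at least 1 FPKM, 2.61% and 4.08% with the block, and from 3.24% to 5.39% and from 3.82% to 6.14% without 1 library. The count without overlap ranged from 0 to 1 without 1 library, and where it was 1 the library left out was the one that overlapped, so nothing is read from it. The members' median log2 fold change was -0.0072 with the bone marrow score and 0.077 after rescaling to TPM, where that of all genes was -0.015 and 0.043, and from 0.0049 to 0.026 without 1 library. *Gabarap* was at -0.0072 with the marrow score and from -0.036 to 0.027 without 1 library. *Sqstm1* was at 0.0013 with median-of-ratios scaling, 0.046 after rescaling to TPM, and from -0.042 to 0.037 without 1 library. Of the 94 other autophagy and lysosome genes, 7 were higher and 0 lower after rescaling to TPM, 3 were lower with the marrow score or the replicate block, and from 3 to 6 were higher and from 4 to 8 lower without 1 library (4 lower without *Atf6*+/+ replicate 1 or 2 or *Atf6*-/- replicate 5 or 6). The cause of these shifts was not tested. The replicate block used 10 libraries, and the same-numbered pairs had correlations of deviations from -0.21 to 0.12. No pairing by number was thus seen, and links by litter or batch were not tested. Under the block *Atg4a*, the 1 lower member, was at -0.21 (limma adjusted p = 0.728), and no other member met the unadjusted rule. Counting error, which was not computed, bears on low genes such as *Atg9b*.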
